A study of Mus musculus with 45 samples.

Results

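The brain response to simvastatin was examined as a single comparison: 3 brain arrays of mice fed the high-cholesterol diet plus simvastatin (HCD+Sim) against 3 brain arrays of mice fed the high-cholesterol diet alone (HCD), which are 6 of the 45 arrays of the series. All 22080 genes of the deposited table were compared. The animals were male C57BL/6 mice of 7 weeks. Both groups ate the AIN-93 diet with 0.5% added cholesterol, so the cholesterol load was common to them, and the HCD+Sim group also had simvastatin at 0.03 g/100 g of diet. There were 8 mice in each diet group, and all were sacrificed at day 43. RNA of 4 mice made pool A, RNA of the other 4 made pool B, and pool C is described as a mixture of both, which would leave 2 sets of animals behind the 3 arrays of a group. The paper describes collection of liver and kidney only, so this make-up is taken over for the brain pools, which carry the same letters. The Control group (AIN-93 alone) and the groups given the high-cholesterol diet with one of the Ganoderma lucidum extracts (HCD+Gl-1, HCD+Gl-2) have 3 brain arrays each, and enter through their spread in the fit and, for a few genes, as levels and contrasts set beside the main comparison. The liver and kidney arrays enter the fit through their spread as well, and through simvastatin contrasts of their own. The question addressed was whether a statin given with a cholesterol load altered gene expression in brain, and how large a change these arrays could have shown.

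Simvastatin, a statin, blocks the mevalonate pathway, from which cells make cholesterol and the isoprenoids that anchor small GTPases to membranes. When sterols in the endoplasmic reticulum fall, SREBP transcription factors are released and raise the genes of cholesterol synthesis. The brain makes nearly all of its own cholesterol behind the blood-brain barrier, with glia passing it to neurons on apolipoprotein E and neurons clearing it as 24-hydroxycholesterol through Cyp46a1. Liver is the organ in which an oral statin first arrives and is the usual place to see its effect.

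The brain label was borne out by the marker lists. The 24 synaptic plasticity receptor genes had a mean log2 expression of 10.8 to 11.1 over the 15 brain arrays, against 6.36 to 6.54 in the liver arrays and 6.29 to 6.42 in the kidney arrays. The 12 myelin genes lay at 9.71 to 10.2 in brain and at 6.29 to 6.57 in liver. Genes that define liver cells averaged 6.85 to 7.45 in brain and 13.1 to 13.2 in liver. Among the 6 arrays compared, medians lay between 6.85 and 6.88, and the correlation between arrays across genes was 0.9949 to 0.9969 within a group and 0.9950 to 0.9966 between the groups, ranges that nearly coincide. The median SD of a gene over 3 arrays was 0.078 in HCD and 0.086 in HCD+Sim.

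For most genes pool C did not lie between pools A and B as its description would have it. It lay between them for 33.9% of genes in HCD and 27.6% in HCD+Sim. Whether RNA pools or arrays were exchanged was not tested, so the pool letters below are those of the labels. For the 16 cerebellum genes, mean log2 expression was 8.58 in HCD pool A, 8.01 in pool B and 8.97 in pool C, and 8.31, 7.80 and 8.81 in the same order in HCD+Sim. The Control pools read 9.40, 9.86 and 6.91. In all 5 brain groups the cerebellum value of pool C fell outside the range of pools A and B. In HCD+Gl-1 it did so narrowly, at 8.42 against 8.43 in pool B. Results are therefore given with and without the pool C arrays where this changed them.

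No gene was differentially expressed (DE) between HCD+Sim and HCD in brain, where DE asks both for a log2 difference larger than 0.7 in size and for an adjusted p no higher than 0.05 (0 of 22080 genes, 0%; limma on all 45 arrays with Benjamini-Hochberg adjustment). Without the fold change threshold, 4 genes had an adjusted p of at most 0.05, and all 4 were lower in HCD+Sim (0.0181% of genes; 0 genes higher, 0%). They are Emd, S100a5, Nudt3 and Stoml3. At an unadjusted p under 0.05 there were 1220 genes, or 5.53%, of which 550 were higher (2.49%) and 670 lower (3.03%) in HCD+Sim. All 3 HCD+Sim arrays lay above the 3 HCD arrays for 1847 genes (8.37%) and below them for 1549 (7.02%). With 3 arrays against 3, an exact two-sided permutation test of 1 gene cannot give a p under 0.1, so single genes were tested with moderated variances that borrow from the rest of the table. The median log2 fold change was 0.00, with quartiles at -0.07 and 0.07, and 5 genes differed by more than 0.7 in either direction, none of which passed the adjusted p.

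**Figure D1:**
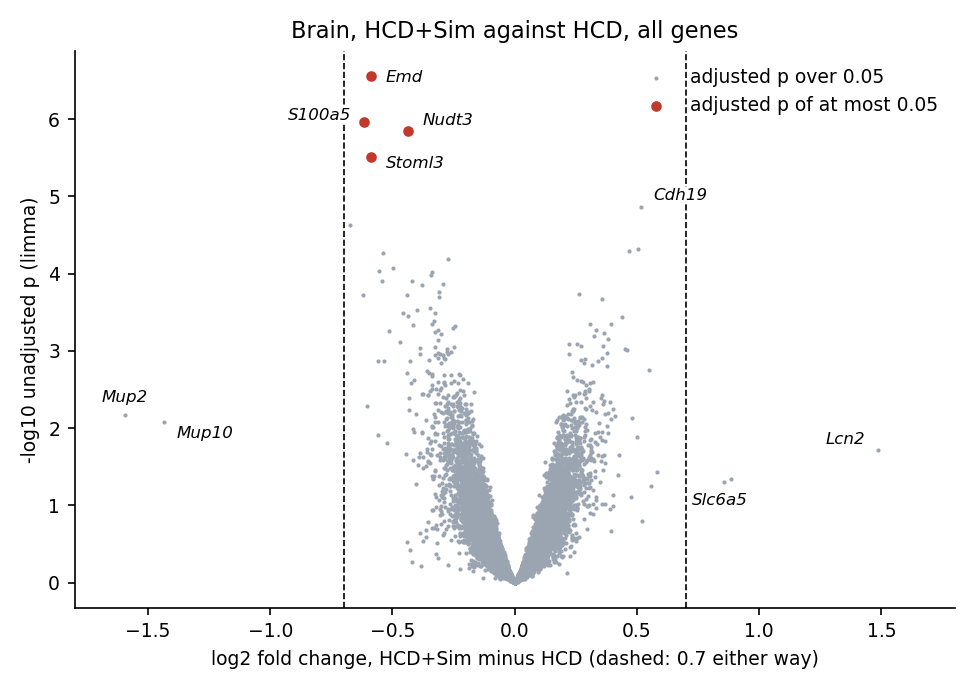
Log2 fold change of each gene, HCD+Sim minus HCD in brain (x axis), against -log10 of the unadjusted limma p (y axis). Each point is 1 of 22080 genes, red points are the 4 with an adjusted p of at most 0.05, and no point is both red and outside the dashed lines at -0.7 and 0.7.

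Emd encodes emerin, a protein of the inner nuclear membrane. Its log2 expression was 9.57, 9.62 and 9.51 in HCD pools A, B and C and 8.96, 8.70 and 9.28 in HCD+Sim pools A, B and C. Every HCD+Sim array lay below every HCD array, and HCD+Sim pool C came closest to them. The log2 fold change was -0.59 ± 0.09 (SE, 95% interval -0.78 to -0.40, adjusted p = 0.00611, limma). Emd was also below Control in HCD+Sim, by -0.48 ± 0.09 (adjusted p = 0.0246), a comparison chosen after its values were seen.

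Nudt3 encodes a hydrolase of diphosphoinositol polyphosphates. It read 9.21, 9.10 and 9.19 in HCD and 8.63, 8.83 and 8.73 in HCD+Sim, with no overlap and the smallest fold of the 4 genes, -0.44 ± 0.08 (95% interval -0.59 to -0.28, adjusted p = 0.0106, limma). The other brain groups lay between, at 9.01 ± 0.12 in Control, 8.92 ± 0.01 in HCD+Gl-1 and 8.91 ± 0.08 in HCD+Gl-2 (SD, n = 3 arrays).

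S100a5, a calcium-binding protein, and Stoml3, a stomatin-like membrane protein, are both known from olfactory sensory neurons, whose axons end in the olfactory bulb. S100a5 read 6.58, 6.75 and 6.92 in HCD and 6.07, 5.89 and 6.44 in HCD+Sim, a log2 fold change of -0.62 ± 0.11 (95% interval -0.83 to -0.40, adjusted p = 0.0106, limma). Stoml3 read 6.97, 6.78 and 6.83 in HCD and 6.21, 6.04 and 6.57 in HCD+Sim, a log2 fold change of -0.59 ± 0.11 (95% interval -0.81 to -0.37, adjusted p = 0.0173, limma). In both genes the HCD arrays were the highest of the 15 brain arrays, and HCD+Sim pool C was the highest of the rest.

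For these 2 genes HCD stood apart from every other brain group, not HCD+Sim. S100a5 averaged 5.70 ± 0.11 in Control, 6.05 ± 0.16 in HCD+Gl-1 and 5.78 ± 0.09 in HCD+Gl-2 (SD, n = 3 arrays), all below the 6.13 of HCD+Sim. Stoml3 averaged 6.04 ± 0.04 in Control, 6.22 ± 0.19 in HCD+Gl-1 and 6.09 ± 0.16 in HCD+Gl-2, against 6.27 in HCD+Sim. The difference between HCD and Control was 1.05 for S100a5 (adjusted p = 1.25e-07) and 0.82 for Stoml3 (adjusted p = 3.12e-05), on the log2 scale. HCD+Gl-1 and HCD+Gl-2 differed from HCD in the same direction as HCD+Sim, by -0.70 and -0.97 for S100a5 and by -0.64 and -0.77 for Stoml3. All of these differences share the 3 HCD arrays. Against Control, which shares none of them, HCD+Sim differed by 0.43 for S100a5 (adjusted p = 0.0734) and by 0.23 for Stoml3 (adjusted p = 0.439).

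**Figure D2:**
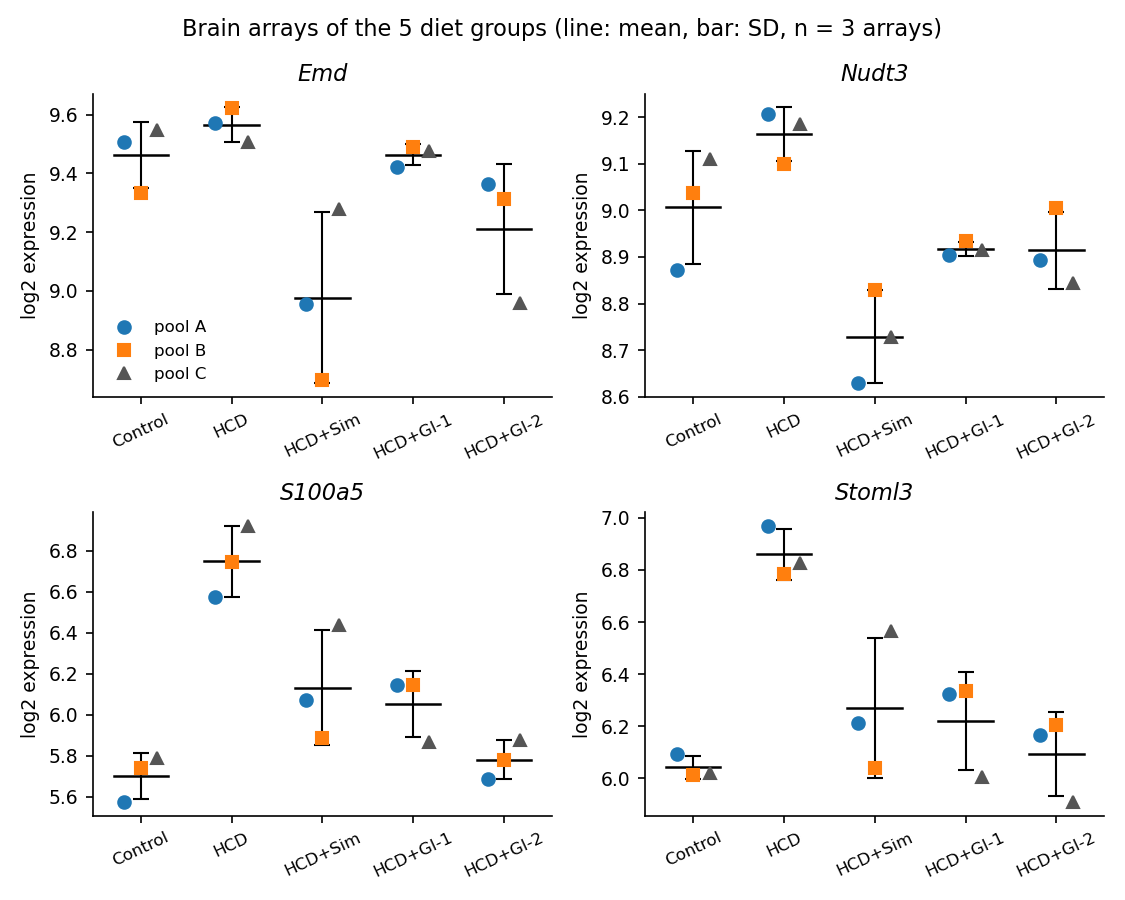
Log2 expression of Emd, Nudt3, S100a5 and Stoml3 on each of the 15 brain arrays, by diet group (x axis). Points are arrays, marked by pool, lines are means and bars SD of 3 arrays; for Emd and Nudt3 the HCD+Sim mean is the lowest of the 5 groups, and for S100a5 and Stoml3 the HCD mean is the highest.

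Genes of the olfactory bulb list, which holds neither S100a5 nor Stoml3, were mostly lower along with them, and their part in those results was not tested. Of 16 bulb genes, 13 were lower in HCD+Sim, 4 of them at an unadjusted p under 0.05 (3.03% of all genes) and 3 without overlap (7.02% of all genes), and the median log2 fold change was -0.20, against 0.00 over all genes. None had an adjusted p of at most 0.05. Cdhr1, a protocadherin-related protein of mitral and tufted cells, read 7.20, 6.96 and 7.06 in HCD and 6.44, 6.27 and 6.63 in HCD+Sim (log2 fold change -0.62 ± 0.15, adjusted p = 0.191, limma). Doc2g, a C2-domain protein of the same cells, read 8.45, 8.23 and 8.54 in HCD and 7.79, 7.58 and 8.21 in HCD+Sim (-0.54 ± 0.13, adjusted p = 0.172, limma). As with S100a5, both stood higher in HCD than in Control, by 1.03 for Cdhr1 (adjusted p = 0.000194) and 0.86 for Doc2g (adjusted p = 0.000217).

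The list as a whole had a mean log2 expression of 7.14, 7.10 and 7.15 in the HCD pools and 6.98, 6.77 and 7.12 in the HCD+Sim pools, so HCD+Sim pool C reached the level of HCD while pools A and B lay below it. Omp, the defining marker of mature olfactory sensory neurons, had a mean of 5.90 in HCD and 5.92 in HCD+Sim. Th, which makes dopamine in bulb periglomerular cells, had a log2 fold change of -0.20 ± 0.18, and Tbx21, a transcription factor of mitral and tufted cells, one of 0.14 ± 0.09. In RNA from whole tissue, fewer cells of a type and less RNA per cell cannot be told apart.

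**Figure D3:**
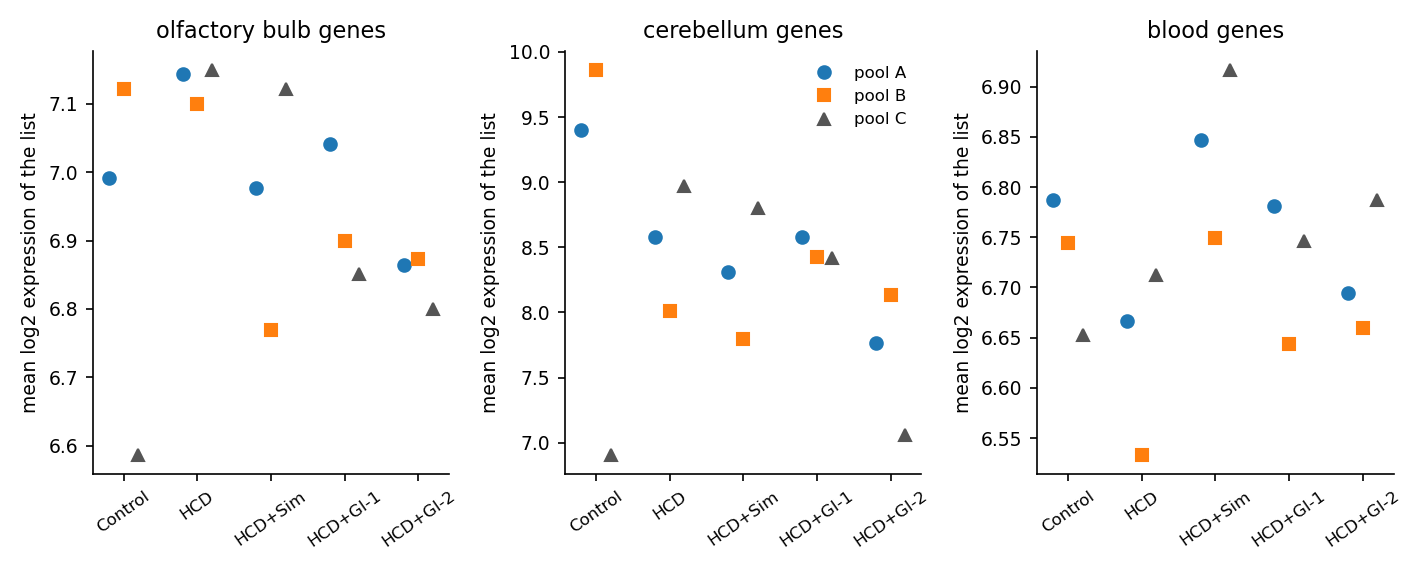
Mean log2 expression of the olfactory bulb, cerebellum and blood gene lists (y axes) on each of the 15 brain arrays, by diet group (x axis) and pool (marker). The cerebellum list spans 6.91 to 9.86, and on the blood list the HCD+Sim arrays lie at 6.75 to 6.92, above the HCD arrays at 6.53 to 6.71.

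Genes of other regions leaned either way. All 16 cerebellum genes were lower in HCD+Sim, with the same median log2 fold change as the bulb genes, -0.20, but none at an unadjusted p under 0.05 and none without overlap. Within HCD the list mean ranged over 8.01 to 8.97 and within HCD+Sim over 7.80 to 8.81. Of 16 hypothalamus genes 12 were lower, 3 of them at an unadjusted p under 0.05 (3.03% of all genes), with a median of -0.10. The largest was Pmch, the precursor of melanin-concentrating hormone, which read 7.49, 7.98 and 6.90 in HCD and 6.87, 6.67 and 7.15 in HCD+Sim (-0.56 ± 0.16, adjusted p = 0.389, limma). Its groups overlapped through pool C of both. Of 12 hippocampus genes 9 were lower, with a median of -0.11, 1 of them at an unadjusted p under 0.05, Dsp (-0.21 ± 0.10), and none without overlap. Of 16 thalamus and midbrain genes 11 were higher, with a median of 0.08. At an unadjusted p under 0.05, 1 was higher (2.49% of all genes), the serotonin transporter Slc6a4 (0.58 ± 0.27, adjusted p = 0.853, limma).

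Markers of glia and vessels had medians close to 0. The median log2 fold change was 0.04 for 9 astrocyte genes, -0.03 for 12 oligodendrocyte and myelin genes, 0.03 for 11 microglia genes and 0.04 for 12 genes of endothelium and mural cells. Of 8 glutamatergic neuron genes 7 were lower, 2 of them without overlap (7.02% of all genes), with a median of -0.06. Of 10 GABAergic neuron genes 7 were lower, 4 of them without overlap (7.02% of all genes), with a median of -0.09. Slc17a7, the vesicular glutamate transporter of cortex and hippocampus, read 12.13, 12.07 and 12.12 in HCD and 11.80, 11.86 and 11.94 in HCD+Sim (-0.24 ± 0.09, adjusted p = 0.724, limma). Its thalamic and brainstem counterpart Slc17a6, the only glutamatergic gene that was higher, differed by 0.36 ± 0.17, and Slc32a1, the vesicular GABA transporter, by -0.27 ± 0.09. All 3 had adjusted p-values above 0.6 (limma).

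Of 8 measured blood genes, 7 were higher in HCD+Sim, 3 at an unadjusted p under 0.05 (2.49% of all genes) and without overlap (8.37% of all genes), and the median log2 fold change was 0.21. Hbb-bs, an adult beta globin whose probes can read near-identical globin copies, read 10.43, 10.36 and 10.61 in HCD and 10.99, 10.90 and 11.01 in HCD+Sim (0.50 ± 0.11, adjusted p = 0.133, limma). Alas2, the haem-synthesis enzyme of red cell precursors, differed by 0.24 ± 0.08 and the neutrophil gene S100a8 by 0.30 ± 0.13. The platelet chemokine Ppbp, named by the size of its change and not on the list, differed by 0.55 ± 0.16 (adjusted p = 0.47, limma). The list mean ran from 6.75 to 6.92 in HCD+Sim and from 6.53 to 6.71 in HCD. Aqp1, the water channel of choroid plexus and red cells, read 6.20, 6.29 and 5.98 in HCD and 6.58, 6.44 and 6.52 in HCD+Sim (0.36 ± 0.09, adjusted p = 0.198, limma). It belongs to the list of 12 ependyma and choroid plexus genes, of which 8 were higher and 4 lower, with a median of 0.08. Of the higher ones 2 had an unadjusted p under 0.05 (2.49% of all genes) and 4 did not overlap (8.37% of all genes).

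No gene of the target pathway of the drug passed a test in brain. Of the 21 cholesterol synthesis genes, all of them measured, 13 were higher and 8 lower in HCD+Sim, none had an unadjusted p under 0.05 and none separated the groups. Their log2 fold changes ran from -0.13 to 0.15 with a median of 0.04, and the widest 95% intervals reached -0.39 and 0.49, so a doubling of any of them lay outside its interval. Hmgcs1, an early enzyme of the mevalonate pathway, read 9.78, 9.81 and 9.60 in HCD and 9.85, 9.89 and 9.71 in HCD+Sim. The groups overlapped, with pool C the lowest array of each, and the log2 fold change was 0.09 ± 0.12 (95% interval -0.16 to 0.33). The isomerase Idi1 differed by 0.03 ± 0.14, and the squalene epoxidase Sqle by 0.05 ± 0.13 (95% interval -0.22 to 0.32).

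In liver 5 of the same genes fell with simvastatin at an adjusted p of at most 0.05, which 242 of all 22080 genes passed in either direction. Of the 5, 2 were DE (0.258% of all genes), and the median of the 21 was -0.20. The farnesyl diphosphate synthase Fdps fell in liver, at -0.78 (adjusted p = 0.00859), and stood at 0.15 ± 0.16 in brain, and the sterol dehydrogenase Nsdhl at -0.78 in liver (adjusted p = 0.00735) and 0.08 ± 0.16 in brain. The difference between the organs was 0.93 for Fdps (adjusted p = 0.0958) and 0.86 for Nsdhl (adjusted p = 0.141, limma contrast of the 2 responses), and for none of the 21 did it reach an adjusted p of 0.05. Both brain intervals, -0.18 to 0.49 and -0.25 to 0.41, left out the liver value, which is taken there as exact, without its own SE.

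**Figure D4:**
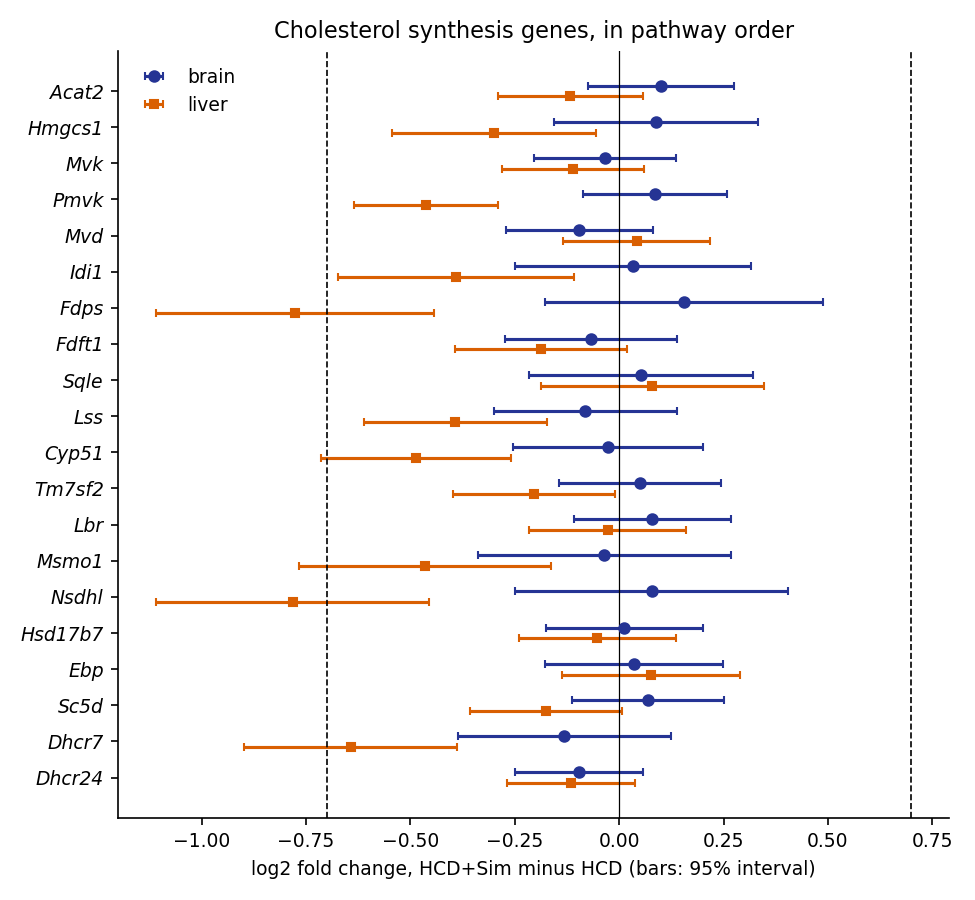
Log2 fold change with its 95% interval, HCD+Sim minus HCD, for 20 of the 21 cholesterol synthesis genes in brain (circles) and liver (squares), each from 3 arrays against 3. All brain intervals include 0 and stay inside the dashed lines at -0.7 and 0.7, while 2 liver values lie beyond -0.7.

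Sensing and turnover of sterols gave as few low p-values. None of 23 genes of sterol sensing and LDL uptake had an unadjusted p under 0.05, and their median was 0.00. Of 24 genes of sterol turnover and efflux 1 was lower at an unadjusted p under 0.05 (3.03% of all genes), Pltp, the phospholipid transfer protein. It read 11.32, 11.26 and 11.19 in HCD and 10.93, 10.81 and 11.14 in HCD+Sim (-0.29 ± 0.11, adjusted p = 0.711, limma). Cyp46a1, the neuronal cholesterol 24-hydroxylase, differed by -0.06 ± 0.13 and Apoe by -0.06 ± 0.06. Apoe was among the most precisely measured genes, with a 95% interval of -0.17 to 0.05. Of 30 genes for prenylation and prenylated GTPases 1 was higher at an unadjusted p under 0.05 (2.49% of all genes), Rac1. It read 10.77, 10.77 and 10.79 in HCD and 10.92, 10.84 and 10.99 in HCD+Sim (0.14 ± 0.06, adjusted p = 0.851, limma). Rhob, a GTPase that statins raise in many cell cultures, differed by 0.01 ± 0.12.

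Of 18 fatty acid synthesis genes none had an unadjusted p under 0.05 in brain, where the median was -0.04. In liver 6 of them were DE (0.258% of all genes), and the median was -0.36. Among 17 genes of drug transport and hydrolysis at the barrier 2 were higher at an unadjusted p under 0.05 (2.49% of all genes). They were Abcg2, an efflux pump of brain capillaries (0.28 ± 0.13), and the carboxylesterase Ces2e (0.27 ± 0.13), with adjusted p-values of 0.879 and 0.878 (limma). Klf2, an endothelial transcription factor known to respond to statins, read 7.26, 7.41 and 7.35 in HCD and 7.66, 7.69 and 7.41 in HCD+Sim (0.24 ± 0.11, 95% interval 0.02 to 0.47, adjusted p = 0.834, limma). The endothelial adhesion molecule Pecam1 differed by 0.22 ± 0.06 (adjusted p = 0.374, limma) with no overlap between the groups.

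Lists of genes that follow neuronal firing, temperature and the time of day had medians of 0.01, 0.04 and -0.03. Of 28 immediate early genes 14 were higher and 14 lower. Without overlap, 5 were higher (8.37% of all genes) and 5 lower (7.02%). At an unadjusted p under 0.05 there were 2 on each side (2.49% of all genes higher and 3.03% lower). Npas4 (0.36 ± 0.14) and Klf2 were the higher ones, and the AP-1 subunits Fosb (-0.29 ± 0.14) and Fosl2 (-0.22 ± 0.11) the lower ones. Of 21 heat shock genes 14 were higher, 5 of them without overlap (8.37% of all genes), with a median of 0.04. The list mean was 9.17, 9.17 and 9.19 in HCD and 9.21, 9.21 and 9.24 in HCD+Sim. The 1 heat shock gene with an unadjusted p under 0.05 was lower (3.03% of all genes), the regulator Hsf1 (-0.21 ± 0.09). Of 19 clock genes 12 were lower, 4 of them without overlap (7.02% of all genes) and none at an unadjusted p under 0.05, with a median of -0.03. Of 31 genes of glial and vascular inflammation 2 were higher at an unadjusted p under 0.05 (2.49% of all genes), Ifit3 and Lcn2, with a list median of -0.01.

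The largest differences were in genes whose spread was also large. Mup2, a major urinary protein made mainly by liver, read 6.87, 6.48 and 7.35 in HCD and 5.11, 5.27 and 5.55 in HCD+Sim. The groups did not overlap, and the log2 fold change was -1.59 ± 0.56 (95% interval -2.72 to -0.47, adjusted p = 0.67, limma). Mup10 followed it at -1.43 ± 0.51, and the family shares near-identical sequence, so their probes are not independent. With either Ganoderma extract Mup2 ran from 5.14 to 8.55 between pools of 1 diet. In liver, where these genes are made, the change of Mup2 with simvastatin was -0.05. Of the 11 liver marker genes 9 were lower in HCD+Sim brain, 2 of them without overlap (7.02% of all genes), with a median of -0.09. Their mean level was 6.89 to 7.09 in HCD and 6.85 to 6.92 in HCD+Sim. The list shares Ttr with the ependyma and choroid plexus list, so in brain it does not read liver RNA alone. Ahsg, a secreted liver glycoprotein, was the 1 of them lower at an unadjusted p under 0.05 (3.03% of all genes), at -0.24 ± 0.11. The part of liver RNA in the Mup2 result was not tested.

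Lcn2, an iron-siderophore-binding protein of the acute phase response, had the largest positive difference of all genes. It read 6.24, 5.99 and 5.72 in HCD and 7.72, 8.18 and 6.51 in HCD+Sim (log2 fold change 1.49 ± 0.61, 95% interval 0.26 to 2.72, adjusted p = 0.764, limma). Pools A and B of HCD+Sim were well above every HCD array, and pool C was just above them. For Lcn2 the HCD group also lay below the other brain groups. HCD differed from Control by -0.81 ± 0.61, and HCD+Gl-1 and HCD+Gl-2 differed from HCD by 0.82 and 0.31. Against Control, HCD+Sim differed by 0.68 ± 0.61 (adjusted p = 0.791, limma). Slc6a5, the glycine transporter of brainstem and spinal cord neurons, read 6.97, 6.91 and 6.97 in HCD and 7.83, 7.31 and 8.28 in HCD+Sim (0.86 ± 0.42, adjusted p = 0.902, limma). Its Control arrays ran from 5.51 to 8.96, a wider range than that of both groups together.

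Beyond the 4 genes, the smallest p-values belonged to genes of modest change. Among the higher ones were Cdh19, a cadherin of glial and Schwann cells, at 5.64, 5.53 and 5.55 in HCD and 5.88, 6.18 and 6.20 in HCD+Sim (0.51 ± 0.10, adjusted p = 0.0599, limma), and Gstt3, a theta-class glutathione transferase, at 6.70, 6.66 and 6.61 against 7.11, 7.07 and 7.20 (0.47 ± 0.10, adjusted p = 0.133). The lysosomal protease Ctsl differed by 0.26 ± 0.06, the tight-junction gene Cldn1 by 0.44 ± 0.11 and the ubiquitin ligases Rnf141 and Trim56 by 0.33 ± 0.09 and 0.31 ± 0.08. Among the lower ones were Cplx2, a complexin that clamps vesicle fusion (-0.55 ± 0.13), the SNARE gene Vti1a (-0.34 ± 0.08) and the mitochondrial thioredoxin Txn2 (-0.27 ± 0.06). The 5S ribosomal RNA gene n-R5s136, of which the genome holds many copies, differed by -0.50 ± 0.11. None of these had an adjusted p of at most 0.05.

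Several genes near the top of the list were miRNA genes of the imprinted region on the distal part of chromosome 12, where a long cluster of miRNAs is transcribed from the maternal chromosome together with the long noncoding RNAs Meg3, Rian and Mirg. The region was picked after the values had been seen, so its counts are a description without a test. Between the start of Meg3 and the end of Mirg (chr12:109540996-109749458, RefSeq, GRCm38.p6), 40 miRNA genes were measured. In HCD+Sim 28 of them were lower, 11 at an unadjusted p under 0.05 (3.03% of all genes) and 10 without overlap (7.02% of all genes). None was higher at that p and 1 was higher without overlap. Each of the 11 also had a lower mean in HCD+Gl-1 than in HCD, a difference that rests on the same 3 HCD arrays. In Control the means of Mir540 and Mir382 lay above that of HCD, and those of the rest of the 11 below it. Among the 275 other miRNA genes 124 were lower in HCD+Sim. At an unadjusted p under 0.05, 4 of the 275 were lower and 3 higher, and 11 were lower and 19 higher without overlap. With simvastatin 27 of the 40 were lower in kidney and 13 in liver, against 133 and 110 of the 275 others. The medians of log2 fold change were -0.11 inside the region and 0.01 outside it. No miRNA gene had an adjusted p of at most 0.05. The mature sequences of the 4 genes of the region with the smallest p among those that separated the groups are printed here from RefSeq to show which miRNAs these loci encode, 5′ to 3′, with the seed (bases 2 to 8) in capitals.
mmu-miR-487b-5p: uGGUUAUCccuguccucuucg
mmu-miR-434-5p: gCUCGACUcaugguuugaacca
mmu-miR-434-3p: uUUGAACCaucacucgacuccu
mmu-miR-377-5p: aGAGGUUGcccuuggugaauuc
mmu-miR-377-3p: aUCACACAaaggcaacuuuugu
mmu-miR-329-5p: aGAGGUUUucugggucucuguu
mmu-miR-329-3p: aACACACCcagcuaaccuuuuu

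All 7 lie on the plus strand, with miR-487b-5p at chr12:109727347-109727367, miR-434-5p at chr12:109594528-109594549, miR-377-3p at chr12:109740553-109740574 and miR-329-3p at chr12:109713541-109713562. No 2 of the 7 have the same bases 2 to 8. For Mir487b the records used here held only the 5p form, so no 3p form is printed. The arrays were labelled from RNA primed at poly(T), and a probe set at a miRNA gene reads longer transcripts through the locus. No value here is a level of a mature miRNA.

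Mir487b read 7.51, 7.83 and 7.81 in HCD and 7.06, 7.23 and 6.83 in HCD+Sim (log2 fold change -0.67, 95% interval -0.96 to -0.39, adjusted p = 0.0857, limma). Mir434 read 4.85, 4.94 and 4.61 in HCD and 4.32, 4.40 and 4.06 in HCD+Sim (-0.54, adjusted p = 0.133, limma). The groups were apart in both, with pool C the lowest HCD+Sim array of each. Mir487b averaged 7.23 in Control, 7.10 in HCD+Gl-1 and 7.58 in HCD+Gl-2, and Mir434 averaged 4.71, 4.55 and 4.75. For both genes these means lay below that of HCD. The part of the HCD arrays in the pattern was not tested. Mir377 differed by -0.51 (adjusted p = 0.307) and Mir329 by -0.35 (adjusted p = 0.247). The long RNAs of the same region differed less, with Meg3 at -0.14 ± 0.11, Rian at 0.08 ± 0.12 and Mirg at -0.02 ± 0.13. Their 95% intervals all included 0.

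How large a change could have been seen was worked out from each gene's standard error. That error pools the spread within all 15 groups of brain, liver and kidney arrays. The median SE of the log2 fold change was 0.0995, and the median 95% interval reached 0.202 to either side of the estimate. For 99.5% of genes (21960) the interval lay wholly within -0.7 and 0.7, and for 96.5% (21318) within -0.5 and 0.5. It lay within -0.3 and 0.3 for 61.4% (13549). In 120 genes it reached past 0.7, so for these a change of DE size lay inside it.

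A true change would have had to be larger than that to be called. With 80% power at an unadjusted p of 0.05, the typical gene (median SE) needed a true log2 change of 0.286, or 1.22-fold. With a single changed gene in the table, the Benjamini-Hochberg limit would stand at 2.26e-06 and the needed change at 0.651, or 1.57-fold. If 100 genes passed, it would be 0.496, and if 1000 passed, 0.414. In the strictest of these cases the needed change ran from 0.448 at the 5th percentile of genes to 0.994 at the 95th. These values are for the adjusted p alone.

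Under the DE rule itself, power for the typical gene was 49.9% at a true log2 change of 0.7, since estimates then fall as often under the threshold as over it, 84.2% at 0.8, 97.8% at 0.9 and 99.9% at 1. At a true change of 1, a doubling or halving, 95.1% of genes had at least 80% power. At 0.5 the rule would have called the typical gene in 2.21% of cases, whereas the adjusted p alone would have done so in 33.2%. The 1070 genes that needed a change of 1 or more were led by Saa2, Saa1, Gabra6, Cbln3, Orm2 and Lcn2. As the SE is shared with liver and kidney, the limit of a gene need not be that of the brain arrays alone. For Hmgcs1 the needed change was 0.789 and for Apoe 0.362, while for Mup2 it was 3.64 and for Lcn2 3.97.

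**Figure D5:**
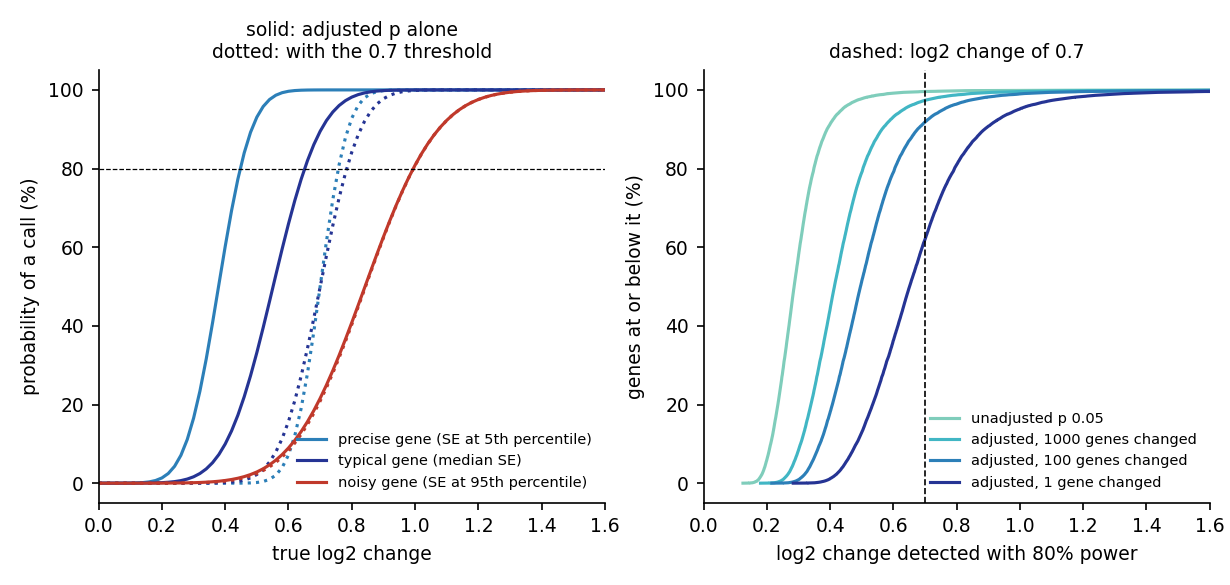
Left, probability of a call (y axis, %) against the true log2 change for genes at the 5th percentile, median and 95th percentile of SE, by the adjusted p alone (solid) and with the 0.7 threshold (dotted), if 1 gene changed. Right, cumulative share of the 22080 genes (y axis, %) by the log2 change that 80% power needs, with medians of 0.286, 0.414, 0.496 and 0.651 from left to right.

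Of the 32 lists, the cerebellum genes were the least measurable. The median change they needed was 2.09 on the log2 scale, the highest 4.95, and none of the 16 could have shown a change under 0.7 with 80% power. These limits treat the 3 arrays of a group as separate samples. From pools A and B alone, which by their description share no animals, the typical gene needed 0.803, or 1.74-fold, and from the 15 brain arrays alone 0.751.

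The counts depended on pool C. With pools A and B only, 8 genes were DE and 50 had an adjusted p of at most 0.05 (limma). Lcn2 (log2 fold change 1.83, adjusted p = 0.000109) was higher, and Emd (-0.77), Mup2 (-1.49), Mup10 (-1.29), Stoml3 (-0.75), Gpx3 (-0.79), Pmch (-0.97) and Cdhr1 (-0.72) were lower. For Gpx3, an extracellular glutathione peroxidase, and for Pmch the pool C arrays differed the other way, by 0.57 and 0.25. Leaving out HCD+Sim pool C alone gave 4 DE genes, Emd, S100a5, Stoml3 and Doc2g. The 4 genes with an adjusted p of at most 0.05 were lower in HCD+Sim under all 13 alternatives, but none passed when HCD pool B was left out or when the brain arrays were fitted alone, where their adjusted p ran from 0.446 to 0.53.

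The same drug gave more calls in the other organs. Whether the brain, liver and kidney pools came from the same mice is not stated in the labels. In liver 57 genes were DE between HCD+Sim and HCD (0.258%), 44 of them up, and kidney had 31 (0.14%), of which 25 went down. The response differed between brain and liver, at the DE rule applied to the difference of the 2 changes, for 14 genes (0.0634%), of which 10 were DE in liver, and between brain and kidney for 36 (0.163%), of which 27 were DE in kidney. The 57 liver genes had a median absolute log2 change of 0.963 in liver and 0.075 in brain, and the largest in brain was 0.388. For all 57 the brain 95% interval left out the liver value. That reading takes the liver value as exact, in genes chosen for a large liver change. The contrast of the 2 changes, which counts the error of both, called 10 of the 57. The sign was the same in both organs for 29. Of the 57, 16 belong to the pancreas acinar and skeletal muscle lists, markers of other tissues, and among the other 41 the medians were 0.866 in liver and 0.073 in brain.

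A change of the size seen in liver would not always have been called in brain. Power in brain for the liver effect was at least 80% for 8 of the 57 and at least 50% for 27, with a median of 48.7%. Mt1 and Mt2, metallothioneins that bind zinc and copper, rose by 1.21 and 1.72 in liver, against -0.04 and -0.05 in brain (adjusted p of the difference 6.17e-06 and 3.34e-05, limma). The PPAR target Cyp4a14 rose by 2.42 in liver, against -0.07 in brain (adjusted p of the difference 0.0216). Acly and Me1, which supply acetyl-CoA and NADPH for fatty acid synthesis, fell in liver, at -0.90 and -0.78, against 0.04 and 0.14 in brain (0.0254 and 0.0353). S100a5 and Gstt3, also among the 14, had the larger difference in brain, at -0.62 and 0.47 against 0.11 and -0.24 in liver.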

How the data were processed

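Brain, liver and kidney RNA was hybridized to Affymetrix Mouse Gene 1.0 ST arrays, 3 per diet group and tissue. The authors corrected background with RMA, quantile normalized with oligo, attenuated batch effects with ComBat (batches not given in the sources used here), kept 1 probe set per gene and deposited log2 values. ComBat can shrink or shift differences where batches and diets coincide. Tissue, diet and pool came from the labels. The deposited log2 values were fitted without further change in R 4.3.3 with limma 3.58.1, as 15 group means over 45 arrays with empirical Bayes moderation and 37.3 total degrees of freedom, and p-values were adjusted by Benjamini-Hochberg across 22080 genes. Detectable changes came from the noncentral t distribution, taking each gene's SE as its true one. The fit was tested on simulated data. The number of arrays limits precision. Since pool C is described as a mix of pools A and B, p-values cover the spread between these arrays only.

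Genes named are those with an adjusted p of at most 0.05, the 8 with the smallest p and the 5 with the largest change in each direction among genes whose groups did not overlap (leaving out predicted, olfactory receptor and small RNA names), 12 sterol and statin genes, and up to 4 per list at an unadjusted p under 0.05. Others were chosen after their values were seen. The comparison, the lists and the rule were chosen with earlier results of these data known. Some genes of this rule are not reported here, and 13 rows whose names had turned into dates are not named. Alternatives were other sets of arrays, a filter on dim genes, a block for pool letter, renormalized brain arrays, moderation with trend and robust options, and each array left out. Figures were drawn with matplotlib 3.10.9.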

Additional observations from a re-analysis of the deposited data

Results flagged for a closer look

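The response to simvastatin differed between brain and liver, by the contrast of the 2 changes in the limma fit, for 14 genes at the DE rule. Where brain was lower than liver, the difference on the log2 scale was -1.25 for Mt1, -1.76 for Mt2, -1.21 for Cxcl14, -2.49 for Cyp4a14, -1.15 for Slc13a5, -1.10 for Isyna1 and -0.999 for Cxcl9. For these 7 the liver change was the larger of the 2. It was -0.77 for Dab1, a reelin adaptor, which changed by -0.38 in brain and 0.39 in liver, -0.73 for Fcer1g, with -0.31 and 0.43, and -0.73 for S100a5. Where brain was higher, it was 0.94 for Acly, 0.92 for Me1, 0.81 for Rdh11 and 0.71 for Gstt3.

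The response differed between brain and kidney for 36 genes, among them many vomeronasal receptor and Y-linked multicopy genes whose probes can read near-identical copies. Of the other names, the difference was -0.86 for Cyp24a1, -1.23 for BC023105, -0.76 for Dnase1l3 and -0.72 for Iigp1, with the larger change in kidney. It was -0.81 for Rnf170, -0.75 for Usp11, -0.85 for Dusp15 and -0.73 for Snx12, in which brain was lower and kidney higher and neither organ's own change was DE.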

How the results depend on the processing

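The absence of DE genes held in the fits of the 15 brain arrays, of the 6 compared arrays, with the dim filter, after renormalization, with trend and robust moderation, and without the Control pool C array (an alternative added after seeing the data). It did not hold with pools A and B only (8 DE genes), and leaving out single arrays gave 0 to 4. Without a fold change threshold there were 4 genes. The count at an adjusted p of at most 0.05 was 0 in the fit of brain arrays only, 0 in the 6 arrays, 0 after renormalization, 50 with pools A and B only, and 0 to 27 when 1 array was left out. At an unadjusted p under 0.05 the count ran from 780 to 2034 over the alternatives. The smallest detectable change of the typical gene was 0.587 to 0.850 over all of them, and 0.733 to 0.736 with 1 array left out. With the pool letter as a replicate block, 0 genes were DE, 6 had an adjusted p of at most 0.05 and the detectable change was 0.655. Deviations of same-lettered pools correlated at 0.029, 0.190 and 0.092, and over all pairs of HCD and HCD+Sim pools the range was -0.159 to 0.190. Whether the letters pair the samples was not tested. The count of genes that differed between brain and liver was 76 with pools A and B, 27 with the replicate block, 1 with the 12 arrays only and 4 to 15 with a brain array left out. Between brain and kidney it was 40, 37, 39 and 30 to 36. Alternative values were compared for 42 of the genes named here, not for all of them. Of these 540 values, 495 kept direction and side of the adjusted threshold, 28 lost it, 17 gained it and 0 changed sign. Of 416 alternative medians of the 32 lists, 32 moved by more than their spread. The cause was not tested.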
